A study of Homo sapiens with 8 samples.

Results

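The genes that encode readers and demethylases of N6-methyladenosine (m6A) were followed in MIAPaCa-2, a human cell line established from a pancreatic carcinoma. The 10 genes were listed by name: YTHDF1, YTHDF2, YTHDF3, YTHDC1, YTHDC2, IGF2BP1, IGF2BP2, IGF2BP3, FTO and ALKBH5. All 10 were found by Ensembl identifier among the 63568 genes of the count table. Control cells expressed a control short hairpin RNA, shRNA for short, and METTL3-KD cells an shRNA that targets METTL3, which is the enzyme that places most m6A on mRNA. In methylated RNA immunoprecipitation sequencing (MeRIP-seq), fragmented RNA is precipitated with an antibody against m6A and compared with a part kept aside as input. The 8 samples form 4 groups, which are the m6A and input RNA of each cell type, and each group is 1 library read on 2 sequencer lanes. The METTL3-KD cells were given to the study by others, and the sources used here do not say whether they are a clone. Because each condition had 1 library, no difference between conditions has a replicate check, and every interval and detection limit covers counting error only.

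m6A acts mainly through proteins that bind it. The cytoplasmic YTHDF proteins recognise m6A with a YTH domain and are known for roles in decay and translation of methylated mRNA. The nuclear YTHDC1 acts in splicing and export, and YTHDC2 is a helicase best known from germ cells. The IGF2BP proteins bind and stabilise mRNA, and FTO and ALKBH5 are dioxygenases that remove the methyl group. FTO also acts on a related mark next to the mRNA cap.

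Peaks were present in 5 of the 10 gene bodies, and the sequences under those in IGF2BP2, YTHDF2 and FTO are given here. These peaks rested on 1 fragment each in IGF2BP2 and FTO and on 2 in YTHDF2, after removal of duplicates and scaling. Whether the sites carry m6A was not tested. The typical m6A motif reads A, G or T, then A or G, then A and C, and last A, C or T. In each sequence the capitals mark the motif closest to the peak summit, read 5′ to 3′ on the strand of the gene from the GRCh37 reference.
IGF2BP2, METTL3-KD list, chr3:185416098-185416126, minus strand: aattcagattcgAAACAtccctcctcacc
YTHDF2, METTL3-KD list, chr1:29087362-29087390, plus strand: aattacaggtgtGAACCactgcgcctggc
FTO, control list, chr16:53972600-53972628, plus strand: gggaaagcagtgGAACCatcgttaccaca
The IGF2BP2 motif lay 33 nt from the summit and inside coding exon 3, whereas the motifs of YTHDF2 and FTO lay 10 nt from the summit and inside introns. The window of 101 nt around the summit held 1 motif in IGF2BP2, 1 in YTHDF2 and 2 in FTO. The 2 windows in YTHDF3 held 3 and 2 motifs, and the window in IGF2BP3 held 0. A window with at least 1 motif was common: it was found for 84.4% of 1915 control peaks and for 84.7% of 688 METTL3-KD peaks that lay in genes of a single strand. The 75 bases around each of these 6 summits occurred once in the reference genome.

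The input libraries held few distinct molecules, and this set what could be seen of each gene. Counted reads numbered 1609215 and 1628753 in the control lanes, against 906240 and 926765 in those of METTL3-KD cells. The peak caller recorded 9291 distinct positions in the control input, each read 310 times on average, and 52141 distinct positions in the METTL3-KD input, each read 25.7 times. Reads per gene clustered at 502 and 1018 in the control input and at 17.5 and 33.4 in the METTL3-KD input. The lower of these values is called 1 step here, and 1 step was worth 155 CPM (reads scaled to the total of the input) in the control and 9.56 CPM in METTL3-KD cells. The clustering was much weaker in METTL3-KD cells. Among genes with at least 10 reads, 64.3% in the control but 24.4% in METTL3-KD cells lay within 0.25 of either value on the log2 scale. Step values of the METTL3-KD input are therefore the less certain ones. A limit of 3 reads would correspond to 0.927 and 1.64 CPM, but because reads per gene clustered at the step, most clearly in the control, values are given in steps beside this limit. METTL3 itself had 0 reads in all 4 input lanes, so the shRNA target gave no check of the labels. The epithelial markers KRT8 (10850 and 1167 reads in the control and METTL3-KD inputs) and KRT18 (3535 and 1212 reads) were present, whereas KRT19 had 1 and 201 reads and EPCAM and CDH1 had 0 reads in both. The mesenchymal marker VIM had 8978 and 5649 reads, and CDH2 and FN1 had 0. Of the markers of other cell types, the fibroblast gene COL1A2 had 1804 and 353 reads, and COL1A1, PTPRC, HBB, PRSS1, CPA1 and INS had 0 reads in both inputs. The part of COL1A2-expressing cells in the values below was not tested.

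**Figure D1:**
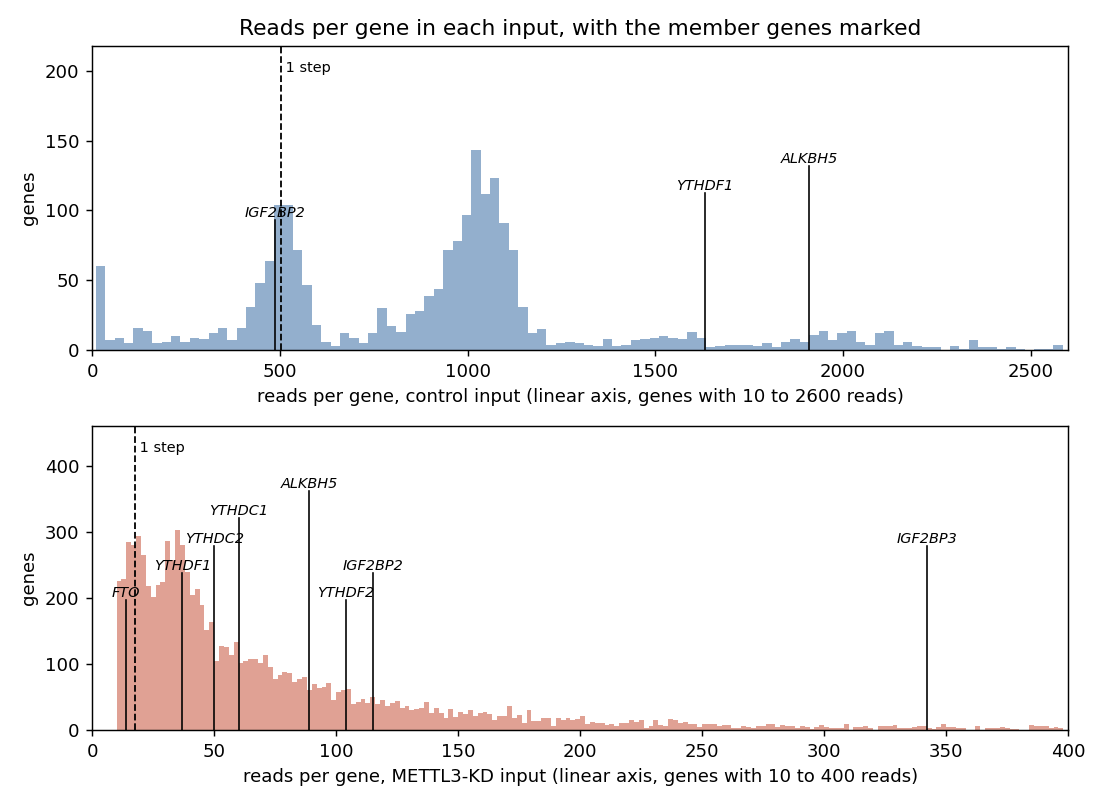
Histograms of reads per gene (x axis, linear) against the number of genes (y axis) in the control input (top) and the METTL3-KD input (bottom), with vertical lines at the reads of each reader and demethylase gene that had any and a dashed line at 1 step. IGF2BP2 sits on the first control peak at 486 reads, and FTO with 14 reads lies just under the METTL3-KD step of 17.5 reads.

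The readers and demethylases were detected unevenly. Reads were counted for 3 of the 10 genes in the control input and for 8 in the METTL3-KD input, beside 10.3% and 39.6% of 19488 protein-coding genes. YTHDF1, IGF2BP2 and ALKBH5 had reads in both inputs, YTHDF2, YTHDC1, YTHDC2, IGF2BP3 and FTO in the METTL3-KD input alone, and YTHDF3 and IGF2BP1 in neither. In these bulk samples, fewer cells that express a gene and less of its RNA per cell cannot be told apart. For the genes with at least 10 reads over both inputs, the METTL3-KD over control ratio was taken on the log2 scale after TMM scaling, with 2 reads added. A log2 ratio above 2 was reached by 5 of the 8 genes tested, compared with 79.1% of all 9931 genes tested. All 5 had 0 control reads and met the minimum of 10 reads through the METTL3-KD input alone, so the minimum fixed a ratio above 2 before it was computed, and the count is no result about these genes. A log2 ratio under -2 was reached by 2 genes, compared with 7.37% of all genes tested. Genes with 0 control reads could not fall under -2, so only 3 of the 8 could reach it, and 7.37% is a low share to compare with. Among all genes with at least 10 reads in both inputs, 21.3% were under -2. The median log2 ratio, 5.25 over the 8 genes and 5.60 over all genes tested, rests on genes with 0 control reads.

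**Figure D2:**
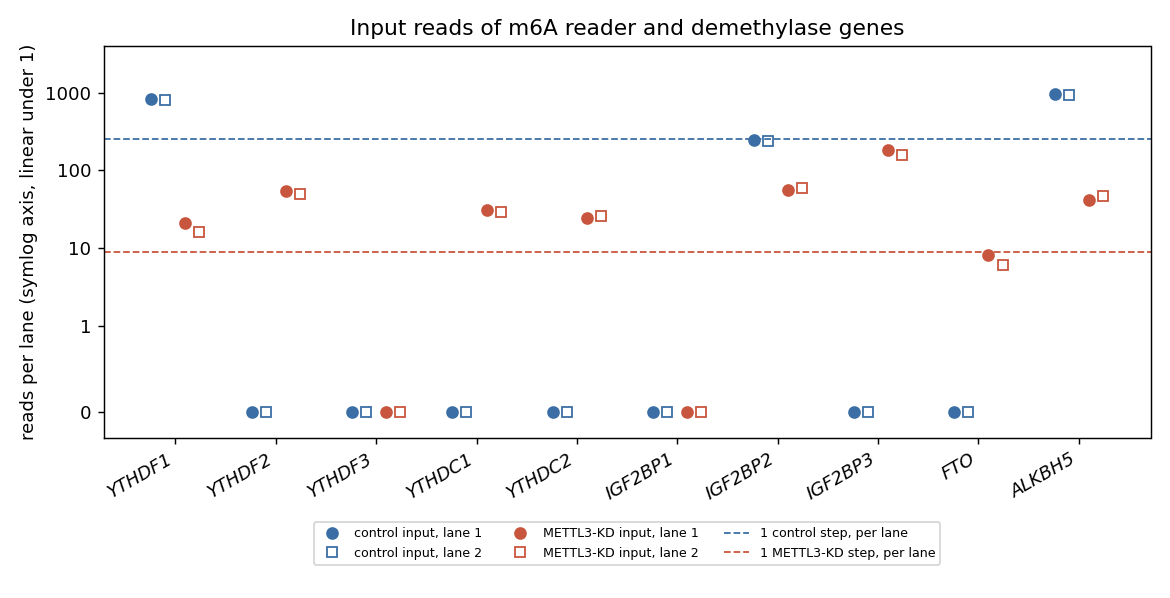
Reads per lane (y axis, linear under 1 and logarithmic above) for each gene (x axis), with circles for lane 1 and squares for lane 2, control in blue and METTL3-KD in red, and dashed lines at 1 step divided over 2 lanes. Lanes of the same library lie close together, and 5 genes have 0 reads in both control lanes and some in both METTL3-KD lanes.

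YTHDF1 was the YTHDF reader with control reads. YTHDF1 (ENSG00000149658.13, chr20:61826781-61847491, minus strand, hg19) had 839 control reads on lane 1 and 793 on lane 2, against 21 and 16 in METTL3-KD cells. These are 504 CPM or 3.25 steps in the control and 20.2 CPM or 2.11 steps in METTL3-KD cells. Under TMM scaling an unchanged level would have given 357 reads in the METTL3-KD input, where 37 were counted. The log2 ratio was -3.24, with a 95% interval of -3.78 to -2.80 when each read was counted as 1. Counted in steps, rounded to 3 and 2, the log2 ratio was -3.23 with an interval of -6.81 to -0.11. This interval lay under 0 but extended above the threshold of -2. It takes the TMM scaling as exact, and its upper end lay close to 0. With DESeq2 size factors the log2 ratio in reads was -2.99, and a shift of that size would carry the upper end past 0. With the prior count added to steps, YTHDF1 was at -1.92, just short of the threshold of -2.

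YTHDF2, the reader best known for mRNA decay, had the opposite pattern of detection. YTHDF2 (ENSG00000198492.10, chr1:29063133-29096287, plus strand) had 0 reads in both control lanes, whereas METTL3-KD cells gave 54 and 50 reads per lane, or 56.7 CPM and 5.93 steps. The same level would have given 0.947 steps in the control input, so a difference from the control was not detectable at this depth. Of the stretches of 75 bases in the YTHDF2 transcript, 12.2% also occurred in another gene, mainly the pseudogene YTHDF2P1, and how the counting treated such reads is not stated. YTHDF3 (ENSG00000185728.12, chr8:64081112-64125344, plus strand), a paralogue of both, had 0 reads in all 4 lanes. Summed over the 3 YTHDF genes, the inputs had 1632 and 141 reads, and YTHDF2, with 0 control reads, gave 104 of the 141. The log2 ratio of this sum was -1.34 (-1.60 to -1.09 in reads, -3.29 to 1.32 in steps). With total counts it was -2.71, past the threshold.

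Both YTHDC readers had reads in METTL3-KD cells and none in the control. YTHDC1 (ENSG00000083896.8, chr4:69176105-69215808, minus strand) had 0 reads in both control lanes, whereas METTL3-KD cells gave 31 and 29 reads per lane (32.7 CPM, 3.42 steps). YTHDC2 (ENSG00000047188.11, chr5:112849391-112930982, plus strand) had 0 reads in both control lanes, against 24 and 26 reads per lane in METTL3-KD cells (27.3 CPM, 2.85 steps). At the METTL3-KD level the control input would have held 0.546 steps of YTHDC1 and 0.455 steps of YTHDC2, so 0 control reads do not separate the conditions for either gene.

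Of the IGF2BP readers, IGF2BP2 had a log2 ratio near 0 and IGF2BP3 had the most reads of the 10 genes in METTL3-KD cells. IGF2BP2 (ENSG00000073792.11, chr3:185360918-185542830, minus strand) had 247 control reads on lane 1 and 239 on lane 2, against 56 and 59 in METTL3-KD cells. The sums were 150.1 CPM and 62.7 CPM, or 0.968 steps in the control and 6.56 steps in METTL3-KD cells. An unchanged level would have given 106 reads in the METTL3-KD input, where 115 were counted. The log2 ratio was 0.11 (-0.19 to 0.41 in reads), but the control value was a single step, and in steps the interval was -2.80 to 5.65. Without TMM scaling, that is with total counts, the log2 ratio of IGF2BP2 was -1.25, so its direction depended on the scaling.

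IGF2BP3 (ENSG00000136231.9, chr7:23349828-23510110, minus strand) had 0 reads in both control lanes, whereas METTL3-KD cells gave 184 and 158 reads per lane, or 186.6 CPM and 19.5 steps. IGF2BP3 was the only one of the 5 genes with 0 control reads for which the METTL3-KD level would have given more than 1 step in the control, 3.11 steps under TMM scaling and 1.2 steps under total counts. The 95% Poisson interval on 0 steps has its upper end at 3.69 steps, above both values, though 3.11 lies close to it. A limit for the upper side alone would be lower and was not computed. No fold between the inputs is given for any of these 5 genes. The IGF2BP3 exons were overlapped over 17.8% of their length by MALSU1 on the opposite strand, which had 0 control and 199 METTL3-KD reads, and 37.9% of the 75-base stretches of the IGF2BP3 transcript were shared with another gene. Since the use of strand in the counting is not stated, reads of IGF2BP3 and MALSU1 could not be told apart in the shared stretch. IGF2BP1 (ENSG00000159217.5, chr17:47074747-47133507, plus strand), the paralogue most tied to embryonic tissue, had 0 reads in all 4 lanes. The 3 IGF2BP genes together had 486 control and 457 METTL3-KD reads. IGF2BP3, with 0 control reads, gave 342 of the 457, so the log2 ratio of the sum is no result about the family. It was 2.1 (1.92 to 2.29 in reads, -0.55 to 7.41 in steps). With total counts it was 0.73, well under the threshold.

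The demethylases differed from each other in detection. ALKBH5 (ENSG00000091542.8, chr17:18086392-18113268, plus strand) had the most control reads of the 10 genes, 964 on lane 1 and 946 on lane 2, against 42 and 47 in METTL3-KD cells. These are 589.9 CPM or 3.80 steps and 48.6 CPM or 5.08 steps. At an unchanged level 418 METTL3-KD reads would have been counted, and there were 89. The log2 ratio was -2.22 (-2.55 to -1.92 in reads), and in steps it was -2.32 (-4.54 to 0.0085), an interval that reached past 0. ALKBH5 lay close to the threshold of -2 and was at -1.97 without control lane 1 and at -1.49 when the prior count was added to steps. FTO (ENSG00000140718.14, chr16:53735604-54192424, plus strand) had 0 reads in both control lanes, against 8 and 6 reads per lane in METTL3-KD cells (7.64 CPM, 0.799 steps). Its METTL3-KD level would have given 0.128 steps in the control, so FTO was not measurable there. For both demethylases together the log2 ratio was -2.02 (-2.32 to -1.73 in reads, -4.14 to 0.21 in steps), and with total counts it was -3.39.

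**Figure D3:**
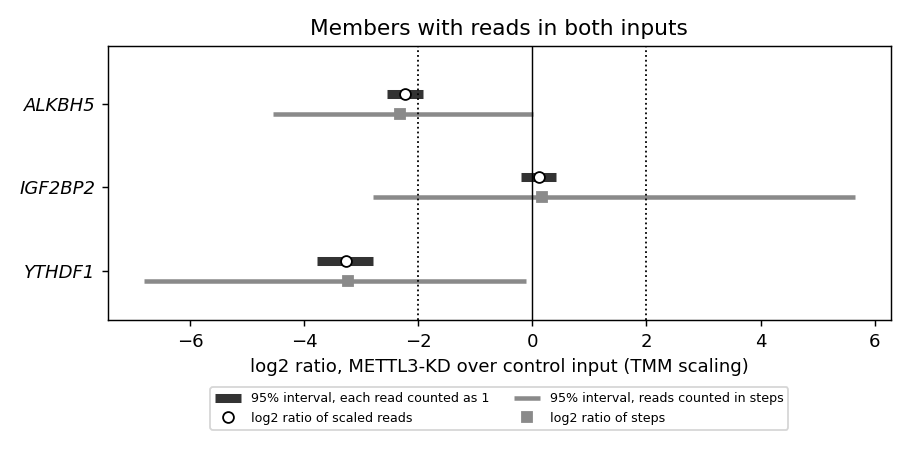
Log2 ratio of METTL3-KD over control input (x axis, TMM scaling) for the 3 genes with reads in both inputs, with circles and black 95% intervals for reads counted as 1 and squares and grey intervals for reads counted in steps. In steps the intervals of ALKBH5 and IGF2BP2 cross 0 and that of YTHDF1 ends at -0.11; dotted lines mark -2 and 2.

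Among the 1871 genes with at least 10 reads in both inputs, the background of these ratios was broad. The median log2 ratio of those genes was -0.61, with 21.3% under -2 and 7.80% above 2. Ratios under -2, where YTHDF1 and ALKBH5 lay, were therefore common there. The share as low as the -3.24 of YTHDF1 was not computed. The genes nearest to each gene, by distance in log2 CPM over the 2 inputs, differed between YTHDF1, IGF2BP2 and ALKBH5. YTHDF1 was closest to SLC35F5 (0.10 away), the ferritin pseudogene FTH1P2 (0.16) and ENSG00000264058 (0.20). IGF2BP2 was closest to MBTD1 (0.032), ENSG00000135213 (0.077) and ZC3H18 (0.10). ALKBH5 was closest to ENSG00000255633 (0.10), SMARCE1 (0.15) and KPNA6 (0.16). Within 0.25 there were 7, 20 and 9 genes, and with 2 libraries such closeness is a description of 2 values.

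All 10 genes together had 4028 control and 811 METTL3-KD reads. The summed log2 ratio was -0.12 (-0.23 to -0.0098 in reads, -1.22 to 1.17 in steps), and it was -1.49 with total counts. Different genes carried the sum in each input: YTHDF1, IGF2BP2 and ALKBH5 held all of the control reads, and IGF2BP3 held the most METTL3-KD reads.

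Levels were compared between genes per length, as CPM per kb of annotated exon. In the METTL3-KD input the order was IGF2BP3 (21.9), YTHDF2 (15.2), ALKBH5 (13.5), IGF2BP2 (11.8), YTHDF1 (6.30), YTHDC1 (4.65), YTHDC2 (2.52) and FTO (0.357), with IGF2BP1 and YTHDF3 at 0. Every pair of neighbours in this order had overlapping 95% intervals on steps. Genes far apart in it did not all overlap: the interval was 13.7 to 34.6 for IGF2BP3 and 0.011 to 2.49 for FTO. The order of the detected genes was the same with the length of the longest transcript, but the levels were not: IGF2BP3 was then at 43.7, YTHDC2 at 4.07 and FTO at 0.66. In the control input ALKBH5 (163.8) and YTHDF1 (157.2) were followed by IGF2BP2 (28.2), and the other 7 genes were at 0. The 95% intervals on steps were 46.9 to 441, 29.9 to 424 and 0.737 to 162. They overlapped, so the order of ALKBH5, YTHDF1 and IGF2BP2 was not resolved. For the genes at 0 the upper ends ran from 26.8 for FTO to 153 for YTHDF2, so 0 reads there do not show absence.

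**Figure D4:**
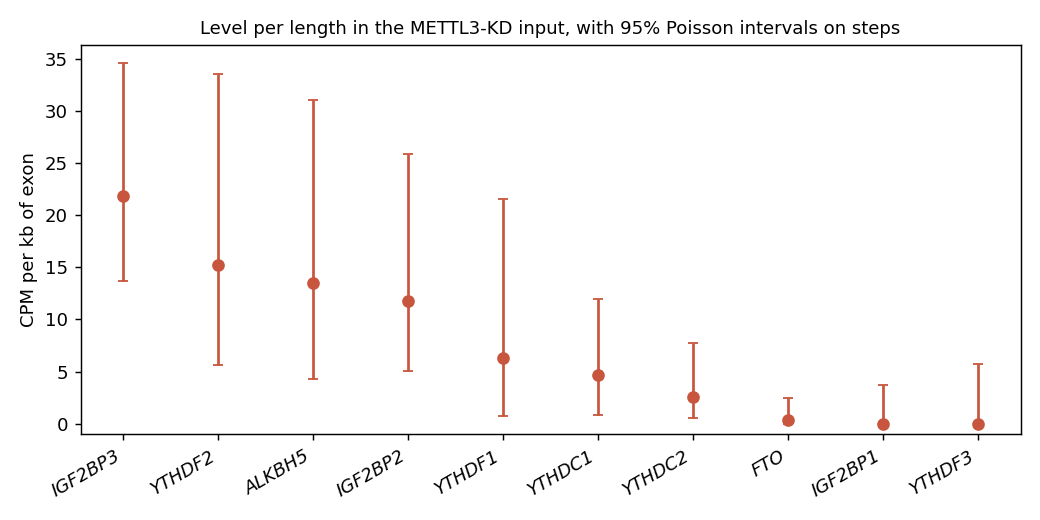
CPM per kb of exon (y axis, linear) of each gene in the METTL3-KD input (x axis, in order of level), with bars for 95% Poisson intervals computed on steps. Neighbouring intervals overlap throughout, from IGF2BP3 at 21.9 to IGF2BP1 and YTHDF3 at 0.

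Peaks in the bodies of these genes were few and small. The control list, of 2298 peaks with q under 0.01, held 4 peaks in YTHDF3, IGF2BP3 and FTO, and the METTL3-KD list, of 830 peaks, held 2 peaks in YTHDF2 and IGF2BP2. A peak was therefore present in 3 of 10 genes in the control and in 2 of 10 in METTL3-KD cells, compared with 9.25% and 3.59% of protein-coding genes. When a fold enrichment above 2 was required as well, 1 control peak, in the YTHDF3 3′UTR, and 1 METTL3-KD peak, in YTHDF2, were left. None of the 10 genes had a peak in both lists, and YTHDF1, YTHDC1, YTHDC2, IGF2BP1 and ALKBH5 had no peak in either. Per Mb of gene body, the 10 genes held 3.62 control and 1.81 METTL3-KD peaks, and all protein-coding genes held 1.60 and 0.558.

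In the control, YTHDF3 had a peak at chr8:64099062-64099161 in the coding sequence of exon 5 and another at chr8:64124305-64124406 in the 3′UTR, in exon 6 of 6. The coding peak had a pileup of 1, which is the number of fragments left at the summit after removal of duplicates and scaling, and a fold enrichment of 1.999 with a −log10 q of 2.93. The 3′UTR peak had a pileup of 2, a fold enrichment of 3.0 and a −log10 q of 6.42. The IGF2BP3 peak at chr7:23387298-23387397 in coding exon 7 of 15 and the FTO peak at chr16:53972574-53972673 in intron 8, 4603 nt from the nearest exon, each had a pileup of 1. A pileup of 1 was the value of 52.0% of the control list, and the 3′UTR peak of YTHDF3 had a pileup that 83.1% of it did not exceed. All 3 genes with a control peak had 0 reads in the control input, as did 80.6% of the protein-coding genes with a control peak and 89.7% of all protein-coding genes.

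In METTL3-KD cells, the YTHDF2 peak at chr1:29087336-29087436 lay in intron 4, 8055 nt from the nearest exon, with a pileup of 2, a fold enrichment of 3.0 and a −log10 q of 6.88. The IGF2BP2 peak at chr3:185416095-185416194 had a pileup of 1 and a −log10 q of 2.94. Its summit lay in intron 2, 10 nt from exon 3, and 41 of its 100 bases were exonic. A pileup of 1 made up 61.8% of this list. YTHDF2 and IGF2BP2 had 104 and 115 reads in the METTL3-KD input. No summit in any of the 5 genes lay in another annotated gene. The lists were called on pooled lanes from libraries of unequal complexity, so presence in one list and absence from the other was not tested.

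**Figure D5:**
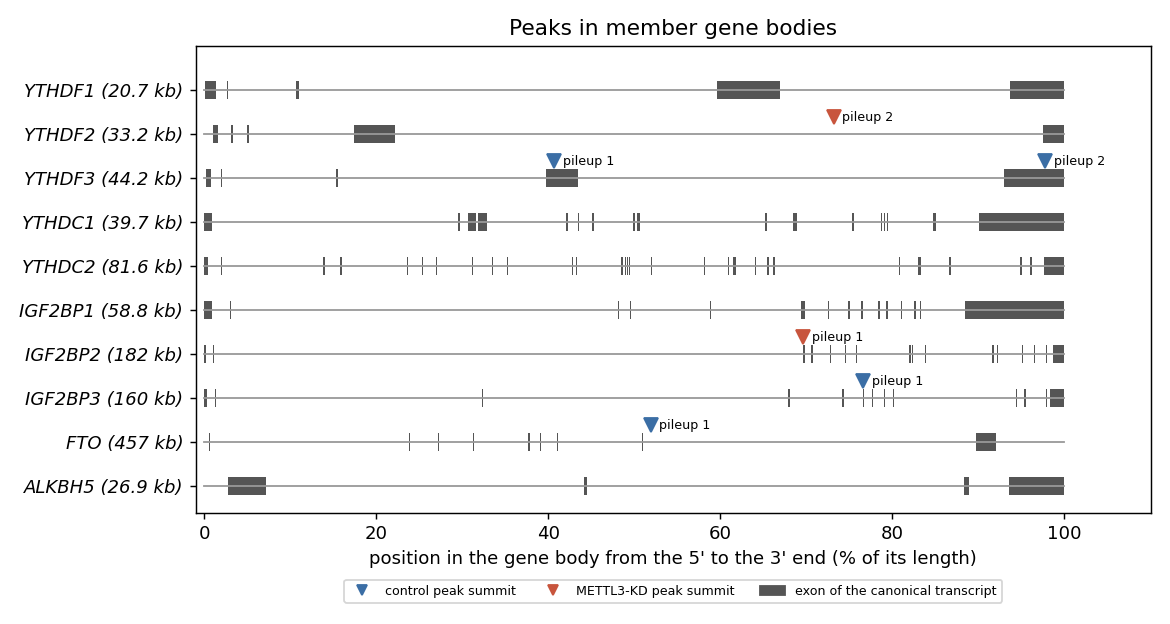
Position of peak summits along each gene body from the 5′ to the 3′ end (x axis, % of its length), with control summits in blue, METTL3-KD summits in red, and exons of the canonical transcript as boxes. The 3 control summits in YTHDF3 and IGF2BP3 lie in exons, and the summits in FTO, YTHDF2 and IGF2BP2 lie in introns.

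Other genes of the m6A pathway were counted in the same way. The shares to read them against are 10.3% and 39.6% of protein-coding genes with control and METTL3-KD reads, 79.1% and 7.37% of tested genes above 2 and under -2, and 9.25% and 3.59% of protein-coding genes with a peak. As above, a ratio above 2 of a gene with 0 control reads was fixed by the minimum of 10 reads, and such genes dominate the medians of the lists. Such genes also could not fall under -2, whereas 21.3% of genes with at least 10 reads in both inputs did. Of 13 writers and associated proteins, 1 had control reads and 9 had METTL3-KD reads; of the 8 tested, 7 were above 2, all with 0 control reads, 1 was under -2, and the median log2 ratio was 5.43. METTL5, an 18S rRNA methyltransferase, had 418 and 425 control and 17 and 15 METTL3-KD reads per lane, with a log2 ratio of -2.50. These are only 1.68 control and 1.83 METTL3-KD steps, and no interval was computed. ZC3H13 and RBM15B, which belong to the METTL3 complex, had 99 and 76 METTL3-KD reads and none in the control. Of 7 other ALKBH dioxygenases none had control reads and 3 had METTL3-KD reads, all 3 above 2 with 0 control reads, with a median of 4.92 and with ALKBH7 (47 reads) and ALKBH3 (21 reads) highest. Neither list had a control peak, and 3 writers and 0 ALKBH genes had a METTL3-KD peak.

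Of 12 other proteins reported to bind m6A or structures that depend on it, 6 had control reads and all 12 had METTL3-KD reads; 7 were above 2, 6 of them with 0 control reads, and none was under -2, beside 79.1% and 7.37% of all genes tested. The median was 3.83. HNRNPA2B1, a nuclear RNA-binding protein, had 2199 and 693 reads and a log2 ratio of 0.53, RBMX 977 and 501 reads (1.23), PRRC2A 1299 and 189 reads (-0.59) and LRPPRC 1116 and 141 reads (-0.79). HNRNPC had 425 control reads, under 1 step, and 812 METTL3-KD reads (3.12). In this list 6 of 12 genes had a control peak and 1 a METTL3-KD peak, beside 9.25% and 3.59% of protein-coding genes.

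Of 23 decay, export, splicing and translation partners of the readers, 7 had control reads and 21 had METTL3-KD reads. Of the 20 tested, 14 were above 2, 13 of them with 0 control reads, and 1 was under -2, beside 79.1% and 7.37% of all genes tested, and the median was 6.46. CNOT1, the scaffold of the deadenylase complex recruited by YTHDF2, had 2019 and 736 reads (log2 ratio 0.74). CNOT8, a deadenylase of the same complex, had 1038 and 22 reads (-3.33), which are only 2.07 control and 1.25 METTL3-KD steps. No interval was computed for CNOT1 or CNOT8, so a difference between them was not tested. EIF4G1, PABPC1, DHX9 and DDX3X had log2 ratios of 0.68, 0.51, 0.45 and -0.31. Peaks were present in 10 of these 23 genes in the control and in 3 in METTL3-KD cells, beside the same 9.25% and 3.59%.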

How the data were processed

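Per the labels, total RNA of MIAPaCa-2 cells was made into stranded libraries without oligo-dT selection. The authors removed rRNA reads with Bowtie2, aligned to hg19 with HISAT2 and deposited raw counts of reads per gene and lane for the inputs (featureCounts); annotation release, strand use and treatment of repeated alignments are not given in the sources used here. Counts exceeded the aligned reads recorded by the peak caller 1.12 times in the control and 1.37 times in METTL3-KD cells. The authors called peaks with MACS2 2.1.1 on pooled lanes, keeping 1 read per position. Per the file headers the peak columns hold the pileup signal, the fold enrichment ratio and −log10 q value of each peak; the headers give a q cut-off of 0.05, the methods 0.01, and q under 0.01 was used. A fold enrichment above 2, which the study also required of significant peaks, was an alternative.

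Lanes were summed, because they are read here as lanes of 1 library. Log2 ratios used edgeR 4.0.16 (TMM over the whole table, prior count of 2, at least 10 reads over both inputs, threshold of 2). TMM moved log2 ratios by 1.37 from total counts. Intervals are 95% Clopper-Pearson or exact Poisson. A step is the lower mode of reads per gene (kernel bandwidth of 0.12 on the log2 scale, genes with at least 10 reads). No p-value was computed between conditions. The ratio script was tested on simulated data. Genes and peaks were placed with GENCODE release 44 on GRCh37; 87.6% of gene identifiers matched. The genes and the 4 pathway lists were chosen with earlier results of these data known. Of the pathway lists, the genes named are those with the most reads in each input (2 per input) or with at least 1 step in both, and of the neighbours the 3 nearest. DESeq2 1.42.0 served in alternatives.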

Additional observations from a re-analysis of the deposited data

How the results depend on the processing

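The directions of YTHDF1 and ALKBH5 did not reverse under the alternatives tried. The 5 genes above 2 had 0 control reads, so no alternative could have reversed theirs. The number of genes of the 10 above a log2 ratio of 2, 5 as reported, was 1 when counts were converted to steps before the prior count was added. The number under -2, 2 as reported, was 1 with DESeq2 size factors, 1 with lanes entered as replicates in DESeq2, 0 in steps, and 1 to 2 when a lane was left out; the gene lost on leaving out control lane 1 was ALKBH5. Over all genes, 7859 higher genes became 3600 at a minimum of 50 reads and 654 in steps, and 732 lower genes became 177 in steps, 1260 with total counts and 1100 beyond a log2 ratio of 1. The log2 ratio ranged over the alternatives from -4.59 to -1.92 for YTHDF1, from -3.58 to -1.49 for ALKBH5 and from -1.25 to 0.67 for IGF2BP2, and that of FTO, the lowest of the 5 genes with 0 control reads, from 0.31 to 8.01. FTO could not be fitted at a minimum of 50 reads or without a METTL3-KD lane. The control peaks in these genes numbered 1 instead of 4 with q under 0.001 or with a fold enrichment above 2. The METTL3-KD peaks numbered 1 instead of 2 under either, and 0 when the summit had to lie in an exon. The limits on q and on fold enrichment kept the same peaks, those with a pileup of 2. They dropped those with a pileup of 1, so they are not separate checks.

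With lanes as replicates in edgeR, the fit with the lane number as a replicate block and the fit without it each gave 7880 higher and 659 lower genes, and 5 and 2 of the 10. The lane numbers did not pair the libraries, since lane deviations correlated at -0.015 over 1871 genes. Lanes do not measure variation between cultures. Depth in distinct positions, 9291 in the control input and 52141 in the METTL3-KD input, limits all values.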
